A study of Homo sapiens with 20 samples.

Results

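The genes described here are the EGR transcription factors EGR1, EGR2, EGR3 and EGR4 and the corepressors NAB1 and NAB2, 6 of the 58233 gene identifiers counted in 20 RNA-seq libraries. They were chosen by symbol, on the values they showed after ADAR knockout in each cell line and after interferon-β (IFN-β) in A549 cells, so the levels and fold changes in those comparisons are a description and no p-value is given for them. The libraries came from 4 lung cancer cell lines, in 10 conditions of 2 libraries each. All cells had been transduced with a lentivirus carrying Cas9 and a single guide RNA (sgRNA) against either GFP, a gene that human cells do not have, or ADAR, which encodes an adenosine deaminase that edits double-stranded RNA. Within each condition 1 library carried sgRNA sg1 and the other sg2. Transduced cells were selected with antibiotics, the sources used here do not say whether they were pools or clones, and no source says that the 2 libraries came from repeated cultures, so spreads and p-values measure only how these libraries differ. A549 cells (lung adenocarcinoma) with GFP or ADAR sgRNAs were kept for 24 h with IFN-β at 10 ng/mL or with its vehicle, sterile water. HCC366 (lung adenosquamous carcinoma), NCI-H1650 (lung adenocarcinoma) and NCI-H196 (variant small cell lung cancer) cells received the same kinds of sgRNA without IFN-β, and their RNA was isolated 5 days after transduction.

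EGR proteins bind GC-rich DNA through zinc fingers and belong to the immediate-early genes, which growth factors, stress and cytokines switch on within minutes without new protein synthesis. The signal usually runs through the ERK, p38 and RSK or MSK kinases to serum response factor with its ETS partners, bound at CArG boxes, and to CREB, bound at TGACG elements (CRE cores). NAB1 and NAB2 bind EGR1, EGR2 and EGR3 and repress their activity, and NAB2 is itself a known EGR target, which makes a feedback loop. EGR4 lacks the domain that NAB proteins bind.

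In GENCODE v44 on GRCh37, EGR1 (ENSG00000120738) lies at chr5:137801168-137804992 on the plus strand, EGR2 (ENSG00000122877) at chr10:64571756-64578927 on the minus strand and EGR4 (ENSG00000135625) at chr2:73518057-73520829 on the minus strand. The canonical transcript of each EGR gene has 2 exons. NAB1 (ENSG00000138386) lies at chr2:191511472-191557492 and NAB2 (ENSG00000166886) at chr12:57482826-57489259, both on the plus strand, with 10 and 7 exons in the canonical transcript. NAB2 overlaps STAT6 on the other strand, NAB1 overlaps 2 genes on the other strand, and EGR2 overlaps another gene, ENSG00000289487, on its own strand, so reads in the shared parts may be split or lost.

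These promoters are shown because the values below contrast EGR1, EGR2 and EGR4 with the corepressor gene NAB2. Each line holds the 250 bases before the RefSeq start on GRCh38.p14, in the direction of transcription. Capitals mark CArG boxes (in EGR1 and EGR2), TGACG or its reverse complement CGTCA (in EGR1, EGR2 and EGR4) and the EGR site GCGGGGGCG (in NAB2). The windows are chr5:138465229-138465478 (plus strand) for EGR1, chr10:62816367-62816616 (minus strand, start 3 of the 3 listed) for EGR2, chr2:73293549-73293798 (minus strand) for EGR4 and chr12:57088864-57089113 (plus strand) for NAB2.
EGR1: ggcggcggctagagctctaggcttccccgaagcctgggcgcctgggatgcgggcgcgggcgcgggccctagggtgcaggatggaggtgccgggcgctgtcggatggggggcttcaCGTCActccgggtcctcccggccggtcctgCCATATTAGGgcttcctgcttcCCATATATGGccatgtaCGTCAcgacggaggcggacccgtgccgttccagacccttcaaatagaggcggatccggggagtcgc
EGR2: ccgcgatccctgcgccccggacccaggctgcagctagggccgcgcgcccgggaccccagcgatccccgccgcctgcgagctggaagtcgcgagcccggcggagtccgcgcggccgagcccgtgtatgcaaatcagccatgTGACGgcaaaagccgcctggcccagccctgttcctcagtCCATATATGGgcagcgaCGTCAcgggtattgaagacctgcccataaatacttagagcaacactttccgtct
EGR4: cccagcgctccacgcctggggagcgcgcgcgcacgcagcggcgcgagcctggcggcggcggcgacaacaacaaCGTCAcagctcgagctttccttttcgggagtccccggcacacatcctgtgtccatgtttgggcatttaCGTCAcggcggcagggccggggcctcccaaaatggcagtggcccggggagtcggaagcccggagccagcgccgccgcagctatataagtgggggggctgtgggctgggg
NAB2: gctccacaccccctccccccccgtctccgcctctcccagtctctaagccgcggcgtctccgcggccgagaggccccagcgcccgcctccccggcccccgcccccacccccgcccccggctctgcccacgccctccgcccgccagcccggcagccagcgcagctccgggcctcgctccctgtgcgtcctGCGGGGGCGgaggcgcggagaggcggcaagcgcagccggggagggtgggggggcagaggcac

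EGR1 held 2 CArG boxes and 2 CRE cores in this window, EGR2 held 1 CArG box and 2 CRE cores, and EGR4 held 2 CRE cores and no CArG box. NAB2 held 1 EGR site and none of the other elements. Of 35116 windows of the same length, 1.16% held a CArG box, 21.2% held TGACG on either strand, 4.72% held GCGGGGGCG and 0.72% held the variant EGR site GCGTGGGCG. The 3 listed starts of NAB1 held 2, 2 and 0 copies of GCGGGGGCG (the 2 copies of a window overlap each other), and the second also held GCGTGGGCG. The second and the third start of NAB1 each held 1 CRE core as well. The other 2 listed starts of EGR2 held none of these elements. These are matches of letters, and no binding was measured.

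**Figure D1:**
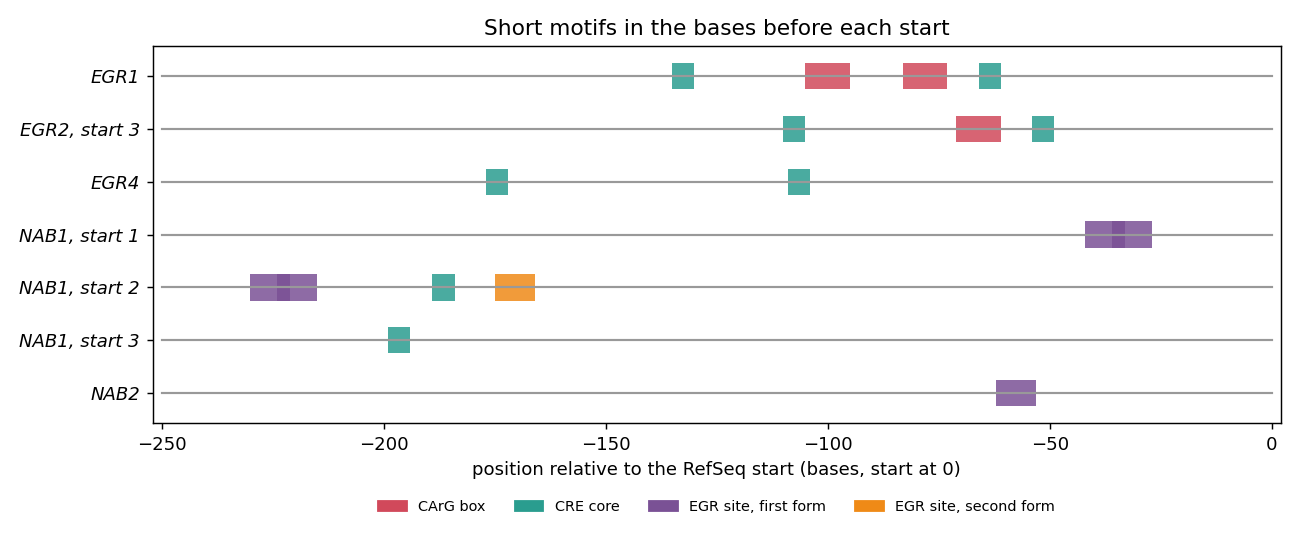
Position of CArG boxes, CRE cores (TGACG) and the 2 EGR sites in the 250 bases before each RefSeq start, on a scale in bases with the start at 0; EGR2 start 3 and the 3 starts of NAB1 are drawn and the 2 empty EGR2 windows are not. EGR1 carries 2 CArG boxes between 2 CRE cores, and NAB2 carries 1 EGR site 54 to 62 bases before its start.

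Reads on genes ranged from 62679 to 19520189 per library, with a median of 6411279. The lowest total belonged to NCI-H196 GFP sg2, where 1 read is worth 14.7 CPM, the unit of reads scaled to library size,, so genes below that level were mostly at 0 there. HCC366 ADAR sg2 had 85.6% of its alignments marked as not unique, against 22.5 to 59.1% in the others. The fold changes of the members after ADAR knockout in these 2 lines are given with and without them where the fit gave a value. GC content and length accounted for 51.5% of the variance of HCC366 ADAR sg2 against the mean of the other HCC366 libraries. That share was 35.5% in HCC366 GFP sg2 and 13.9 and 14.4% in GFP sg1 and ADAR sg1. In the other lines it was 0.158 to 16.5%, and its part in the HCC366 values was not tested beyond the fit with offsets. ADAR itself was lower in each ADAR library than in either GFP library of the same line and treatment, with called falls of 1.29 in NCI-H1650, 0.41 in NCI-H196, 1.08 in A549 with vehicle and 0.60 in A549 with IFN-β on the log2 scale, and a difference of -0.84 in HCC366 that did not pass. Of the labelled cell types, NCI-H196 GFP cells had no read of the neuroendocrine factors NEUROD1 and INSM1 and 12 and 13 reads of the neuroendocrine markers CHGA and SYP, and the squamous marker KRT5 was at 0.36 CPM in HCC366 GFP cells. The lung lineage factor NKX2-1 was at 0.04 CPM or less in GFP cells of all 4 lines. COL1A1, listed as a marker of other cells, was at 1851 CPM in NCI-H196 GFP cells, against 12.7 to 88.3 in the other lines. The squamous marker TP63 was at 27.8 CPM there (SD 19.9), against 1.29 to 2.90. The squamous markers KRT5 and KRT6A were at 0.05 and 0 CPM in NCI-H196, and KRT6A was at 63.1 CPM in NCI-H1650 GFP cells. CHGA was at 13.2 CPM in NCI-H1650, against 0.58 in NCI-H196. Epithelial KRT8 and KRT18 were at 30.7 and 21.4 CPM in NCI-H196 GFP cells, against at least 888.5 in the other lines. The other epithelial markers were low in A549 and HCC366 GFP cells too. EPCAM was at 0.36 and 1.29 CPM in these lines, against 0.10 in NCI-H196 and 97.8 in NCI-H1650. KRT19 was at 1.23 and 0, against 0 and 426, and CDH1 was at 36.4 and 8.53, against 0.10 and 722.

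EGR1, the best known immediate-early factor of the family, was above both GFP libraries in each ADAR library, in every line. CPM is scaled by TMM, edgeR's correction for library composition, within a cell line, and changes are log2 fold changes with their standard error (SE) from edgeR's quasi-likelihood fit. In HCC366, EGR1 was at 2.32 and 4.01 CPM (3 and 14 reads) in GFP cells and at 94.5 and 241 CPM in ADAR cells. That is a log2 fold change of 5.59 (SE 0.61), or 4.74 without ADAR sg2. In NCI-H1650 it went from 37.3 and 30.8 CPM to 102 and 141 CPM, a log2 fold change of 1.83 (SE 0.14). In NCI-H196 it went from 12.2 and 29.3 CPM to 126 and 124 CPM, a log2 fold change of 3.34 (SE 0.16). The second NCI-H196 GFP value stands for 2 reads, and the change was 3.35 without that library.

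**Figure D2:**
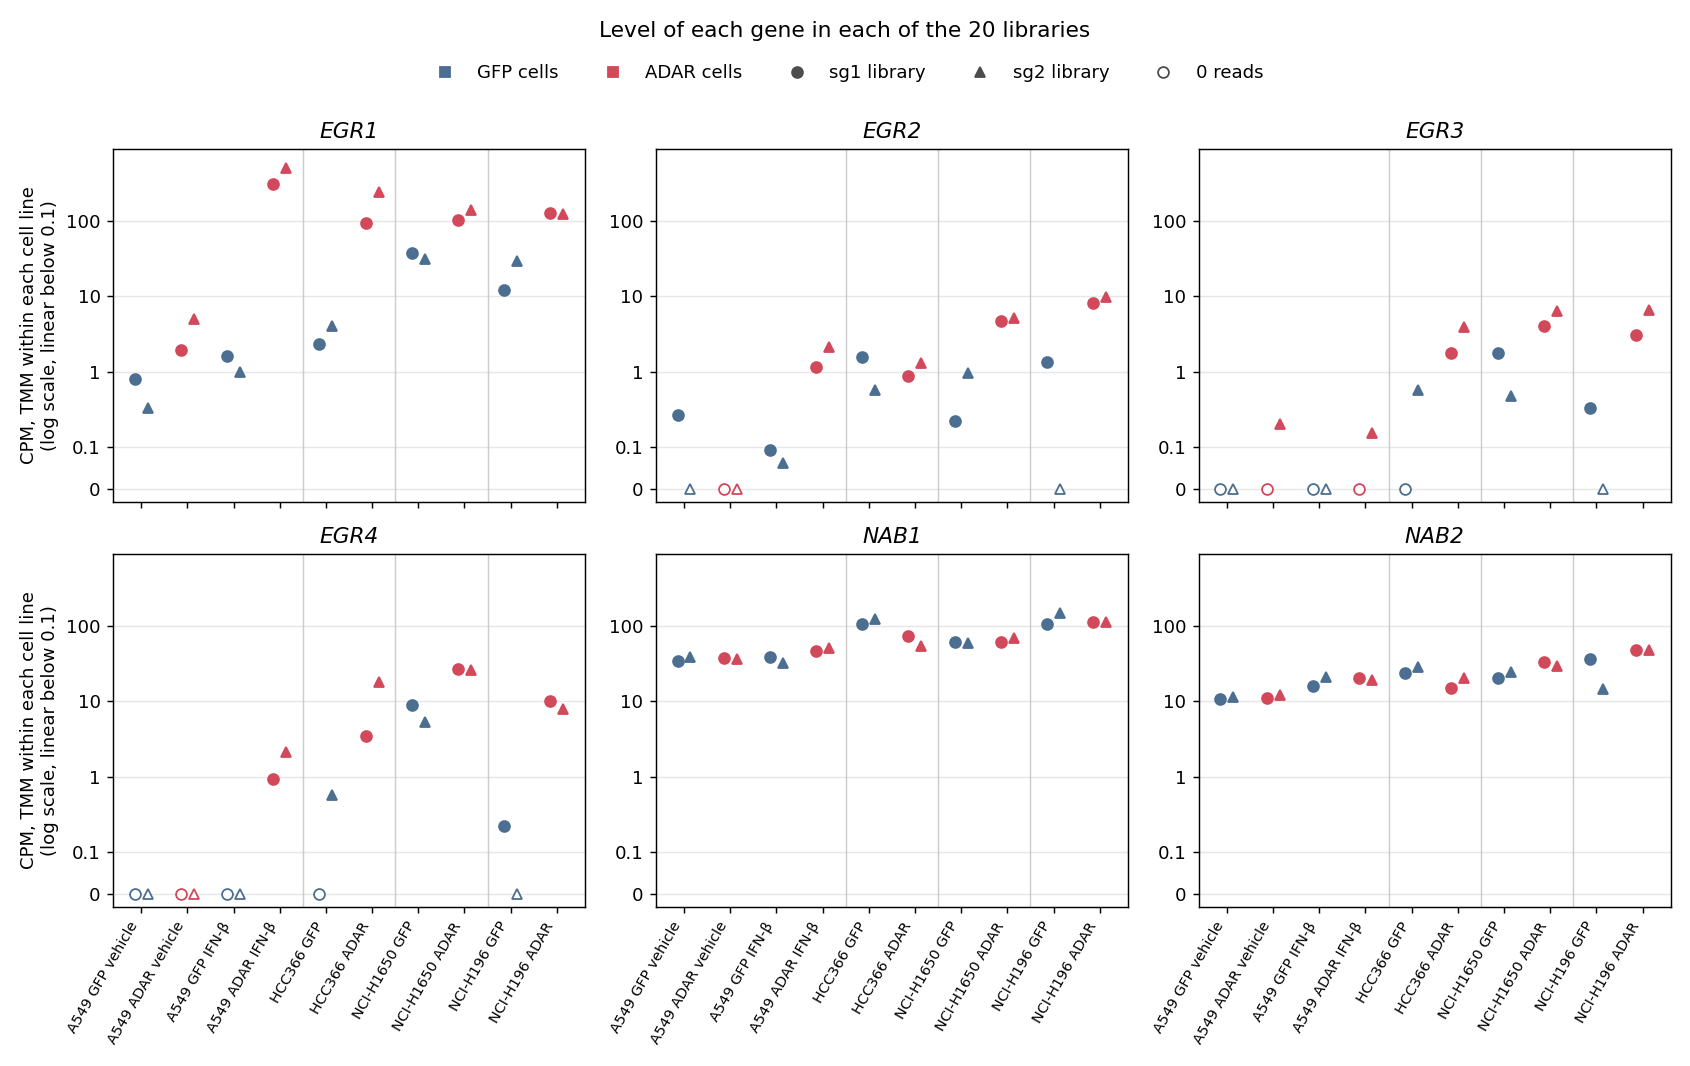
CPM of the 6 genes in each of the 20 libraries (y axis logarithmic, linear below 0.1), grouped by line and condition, with circles for sg1, triangles for sg2 and open symbols for 0 reads. EGR1 is at 309 and 498 CPM in A549 ADAR cells with IFN-β and at 4.98 or below in the other 6 A549 libraries, while NAB1 and NAB2 stay within 32.7 to 50.5 and 10.7 to 20.9 CPM across the 8 A549 libraries.

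The ADAR and GFP levels did not overlap in any of these 3 lines, and the share of all genes without overlap was not counted. EGR1 was among the genes called higher in each of the 3 lines. A call means an adjusted p below 0.05 over all genes tested, and calls of these 6 genes after ADAR knockout or IFN-β are counted as a description only, since they rest on the values that chose the genes. The share of all tested genes called higher was 10.3% in NCI-H196, 6.18% in NCI-H1650 and 1.2% in HCC366.

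The other EGR genes were much lower than EGR1 and had fewer reads. EGR2, which acts in myelinating Schwann cells, hindbrain and lymphocytes, rose in NCI-H1650 from 1 and 4 reads, under 1 CPM in each, to 4.64 and 5.13 CPM (25 and 24 reads), a log2 fold change of 3.03 (SE 0.55). It was 2.33 without GFP sg1 and 4.29 without GFP sg2. In NCI-H196 it rose from 1.34 CPM and 0 to 8.12 and 9.79 CPM, a log2 fold change of 2.82 (SE 0.41), or 2.81 without the shallow GFP library. In HCC366 it was not tested, with 2 and 2 reads in GFP cells against 1 and 2 in ADAR cells. EGR2 levels thus overlapped between GFP and ADAR cells in HCC366 and did not in NCI-H1650 and NCI-H196.

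EGR3, a factor of muscle spindles and T cells, lies at chr8:22545172-22550993 on the minus strand (ENSG00000179388, GRCh37) and overlaps an antisense gene. It rose in NCI-H1650 from 1.76 and 0.478 CPM (8 and 2 reads) to 4.09 and 6.41 CPM (22 and 30 reads), a log2 fold change of 2.15 (SE 0.48). It was 3.38 without GFP sg1, and the call was lost without GFP sg2 (1.51) and without ADAR sg2 (1.80). In NCI-H196 it rose from 0.335 CPM (3 reads) and 0 to 3.05 and 6.65 CPM (3 and 53 reads), a log2 fold change of 4.11 (SE 0.62), and it was 4.11 without GFP sg2. In HCC366 it was not tested, with 0 and 2 reads in GFP cells and 2 and 6 in ADAR cells.

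EGR4, the family member without a NAB binding domain, rose in NCI-H1650 from 9.04 and 5.25 CPM to 26.6 and 26.3 CPM, a log2 fold change of 1.87 (SE 0.22). In NCI-H196 it rose from 0.223 CPM (2 reads) and 0 to 10.2 and 7.90 CPM (10 and 63 reads). The log2 fold change was 5.04 (SE 0.63), or 5.06 without GFP sg2 and 3.77 with DESeq2. The ratio of the pooled reads, each scaled by library size, was 36.8, with a 95% counting interval of 9.84 to 310. In HCC366 it had too few reads for the test, with 0 and 2 reads in GFP cells against 4 and 28 in ADAR cells. Of the 32 ADAR reads, 28 (18.1 CPM) came from ADAR sg2, the library with the high share of alignments that were not unique, and 4 came from ADAR sg1. Counting intervals cover counting error only.

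As a description, the 4 EGR genes were all called higher in NCI-H1650 and NCI-H196, while in HCC366 EGR1 alone had enough reads for the test. EGR2 and EGR3 in NCI-H1650 and NCI-H196, EGR4 in NCI-H196 and EGR1 in HCC366 passed the filter on low counts only through the ADAR libraries, where they were higher. Being tested thus depended on the rise itself. Without NCI-H196 ADAR sg2, EGR2, EGR3 and EGR4 were not tested in that line. With DESeq2 in place of edgeR, EGR1 and EGR4 were called in NCI-H1650 and EGR1 in NCI-H196, and DESeq2 gave no adjusted p to EGR2 and EGR3 in NCI-H1650 or to EGR2, EGR3 and EGR4 in NCI-H196. Without NCI-H196 GFP sg1, which leaves the shallow library as the control, EGR1 had a log2 fold change of 2.09 and did not pass.

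**Figure D3:**
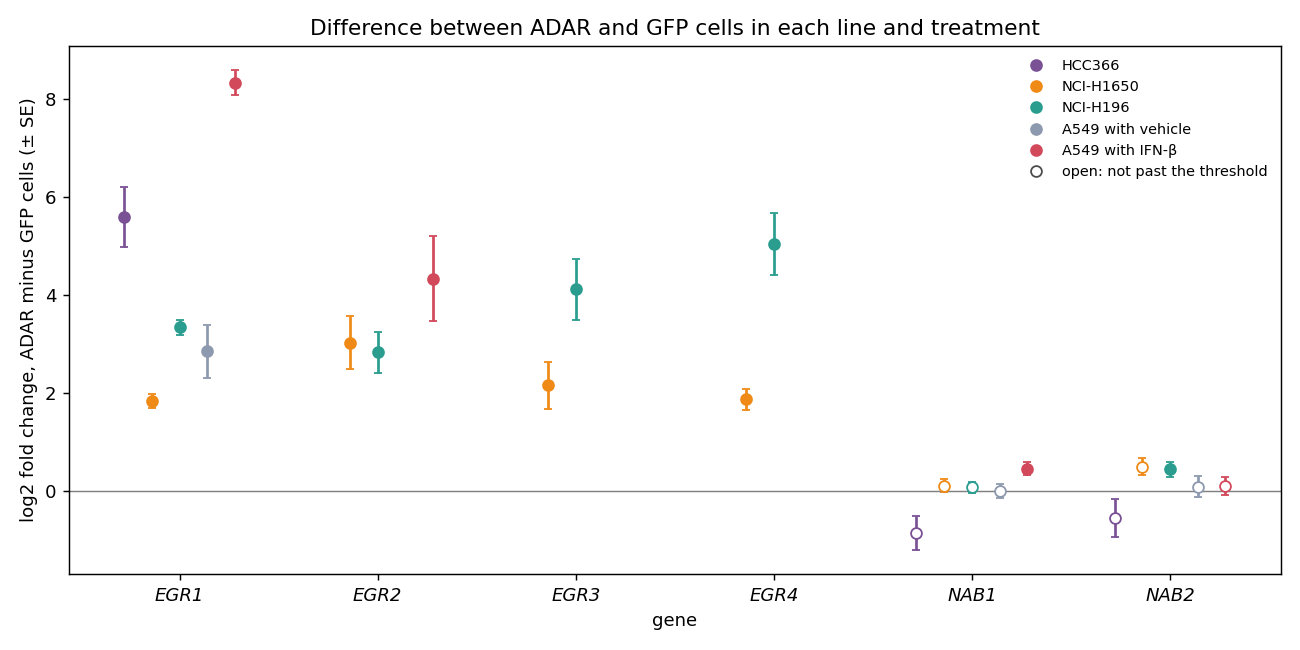
Log2 fold change between ADAR and GFP cells (points, with SE as bars) for each gene in the 3 lines and in A549 with vehicle or IFN-β, filled where the adjusted p is below 0.05; untested genes are absent, and EGR2 in A549 with vehicle, where both ADAR libraries are at 0, is left out. The EGR points lie between 1.83 and 8.34, and the NAB points between -0.87 and 0.49.

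Of the corepressors, NAB1 was at 106 and 125 CPM in HCC366 GFP cells and at 73.5 and 53.7 CPM in ADAR cells. The groups did not overlap, and the log2 fold change of -0.87 (SE 0.35) did not pass the threshold. It was -0.65 without ADAR sg2, and -1.14, which passed, without ADAR sg1. In NCI-H1650 and NCI-H196 the NAB1 differences were 0.10 (SE 0.13) and 0.07 (SE 0.11), with overlapping groups, and the NCI-H196 value was 0.07 without GFP sg2.

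NAB2 was at 24.0 and 28.4 CPM in HCC366 GFP cells and at 14.9 and 20.7 CPM in ADAR cells, a log2 fold change of -0.56 (SE 0.39) that did not pass, or -0.83 without ADAR sg2. With offsets for GC content and length the NAB2 value in HCC366 was also -1.14 and passed. In NCI-H1650 it was at 20.3 and 24.6 CPM in GFP cells and at 33.6 and 29.3 CPM in ADAR cells. The difference of 0.49 (SE 0.17) did not pass, although the groups did not overlap. In NCI-H196 it rose from 35.9 and 14.7 CPM (322 reads and 1 read) to 47.7 and 48.2 CPM, a log2 fold change of 0.43 (SE 0.16), or 0.41 without GFP sg2. This call was lost without GFP sg1 (1.72), ADAR sg1 (0.47) or ADAR sg2 (0.44), and it passed in only 2 of 10 alternative analyses. So NAB2 was lower in both ADAR libraries of HCC366 and higher in both of NCI-H1650 and NCI-H196. STAT6, on the other strand of the same locus, was at 48.0 and 52.4 CPM in HCC366 GFP cells and at 65.6 and 102 CPM in ADAR cells, and its part in the NAB2 values was not tested.

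In A549 cells, ADAR knockout and IFN-β were combined. With vehicle, EGR1 was at 0.792 and 0.332 CPM (6 and 5 reads) in GFP cells and at 1.95 and 4.98 CPM (16 and 49 reads) in ADAR cells. The groups did not overlap, and the log2 fold change was 2.85 (SE 0.55), a call in a comparison where 0.0324% of genes were called higher. This call was lost without GFP sg2 with vehicle (log2 fold change 2.16) and without ADAR sg2 with vehicle (1.98). It was also lost in 3 other analyses, namely with DESeq2, with offsets for GC content and length and in a fit of all 20 libraries.

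With IFN-β, EGR1 was at 1.59 and 0.994 CPM (17 and 16 reads) in GFP cells and at 309 and 498 CPM (2936 and 9570 reads) in ADAR cells. The ADAR libraries lay above the GFP libraries by a log2 fold change of 8.34 (SE 0.26), where 10.8% of 15449 genes were called higher. Within GFP cells the IFN-β effect was 1.32 (SE 0.65), which did not pass, with 4.39% of genes called higher. Within ADAR cells it was 6.81 (SE 0.24), with 15.5% of genes called higher. The difference between the 2 IFN-β effects was 5.49 (SE 0.99), where 4.07% of genes were called higher. These comparisons share libraries, so they are not independent of each other.

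Of the other EGR genes, EGR2 was at 0.264 CPM (2 reads) and 0 in GFP cells with vehicle, at 0 in both ADAR libraries with vehicle and at 1 read in each GFP library with IFN-β. In ADAR cells with IFN-β it was at 1.16 and 2.14 CPM (11 and 41 reads). The pooled reads of ADAR over GFP cells with IFN-β gave a ratio of 24.2 (95% counting interval 6.38 to 205) and a log2 fold change of 4.33 (SE 0.87), which was called. Against ADAR cells with vehicle, where the count was 0, the 95% counting interval of the ratio began at 8.54. The call between ADAR and GFP cells with IFN-β was lost without ADAR sg2 with IFN-β, where the log2 fold change was 3.76.

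EGR4 had 0 reads in 6 of the 8 A549 libraries and 9 and 41 reads (0.946 and 2.14 CPM) in ADAR cells with IFN-β. That was at least 15.5-fold higher than in GFP cells with IFN-β and at least 10.5-fold higher than in ADAR cells with vehicle, on the same floor. EGR4 did not pass the filter on low counts. EGR3 had 2 reads in ADAR sg2 with vehicle, 3 reads in ADAR sg2 with IFN-β and 0 in the other 6 libraries, which was too few to compare. So reads of EGR1, EGR2 and EGR4 were concentrated in the 2 ADAR libraries with IFN-β. For EGR2 the difference between the IFN-β effects in ADAR and GFP cells was 7.62 (SE 2.70), which did not pass. For EGR4 it was not tested.

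NAB2 behaved otherwise in A549 cells. It was at 10.7 and 11.4 CPM in GFP cells and at 11.2 and 12.2 CPM in ADAR cells with vehicle. With IFN-β it was at 15.8 and 20.9 CPM in GFP cells and at 20.4 and 19.1 CPM in ADAR cells. The IFN-β effect was 0.74 (SE 0.19) in GFP cells and 0.75 (SE 0.19) in ADAR cells, both called, and the difference between them was 0.01 (SE 0.28). The ADAR knockout differences were 0.08 (SE 0.21) with vehicle and 0.10 (SE 0.18) with IFN-β. NAB2 was thus higher in each IFN-β library than in any vehicle library, and with IFN-β its levels in GFP and ADAR cells overlapped. The call in GFP cells was lost without vehicle sg1 (0.68), vehicle sg2 (0.79) or IFN-β sg2 (0.51) of the GFP libraries. The call in ADAR cells was lost without ADAR sg1 with vehicle (0.70).

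STAT6 rose alongside NAB2, from 84.2 and 84.2 CPM to 131 and 138 CPM in GFP cells (log2 fold change 0.68, SE 0.11) and from 91.7 and 81.7 CPM to 139 and 128 CPM in ADAR cells (0.62, SE 0.11). The libraries were directional, but the strand setting of the counting is not given in the sources used here, and the part of such antisense reads was not tested. NAB1 was at 34.6 and 39.3 CPM in GFP cells with vehicle and at 47.1 and 50.5 CPM in ADAR cells with IFN-β. Its log2 fold change between ADAR and GFP cells with IFN-β was 0.45 (SE 0.13), which was called, and was 0.32 without GFP sg2 and 0.40 without ADAR sg2 with IFN-β, neither of which passed. With offsets for GC content and length it was 0.26 and did not pass. Within ADAR cells the IFN-β effect on NAB1 was 0.40 (SE 0.14), and this call was lost without any 1 of the 4 ADAR libraries. The difference between the IFN-β effects on NAB1 in ADAR and GFP cells was 0.46 (SE 0.19) and did not pass. In all, 3 of the 4 tested members were called higher in ADAR than in GFP cells with IFN-β (EGR1, EGR2 and NAB1), where 10.8% of all genes were called higher. For IFN-β within ADAR cells it was 4 of 4, where 15.5% of all genes were called higher. EGR2 was tested in A549 only through the ADAR libraries with IFN-β, so these counts are a description. Of 4 tested epithelial markers, 3 were called lower in ADAR than in GFP cells with IFN-β (median log2 fold change -0.61), and their part in these results was not tested.

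Levels of different genes were compared as RPKM (CPM per kilobase of annotated exon, TMM over all 20 libraries). EGR1 had the highest RPKM of the 4 EGR genes in all 10 conditions. It made up 71.0 to 79.3% of their summed RPKM in NCI-H1650 and 99.1 to 99.3% in A549 ADAR cells with IFN-β. EGR4 made up 17.9 to 24.5% in NCI-H1650, with overlapping shares in GFP and ADAR cells. In NCI-H196 its share was 2.14% in GFP sg1 and 9.06 and 7.10% in the ADAR libraries. NCI-H196 GFP sg2 had only 2 reads on the 4 genes.

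**Figure D4:**
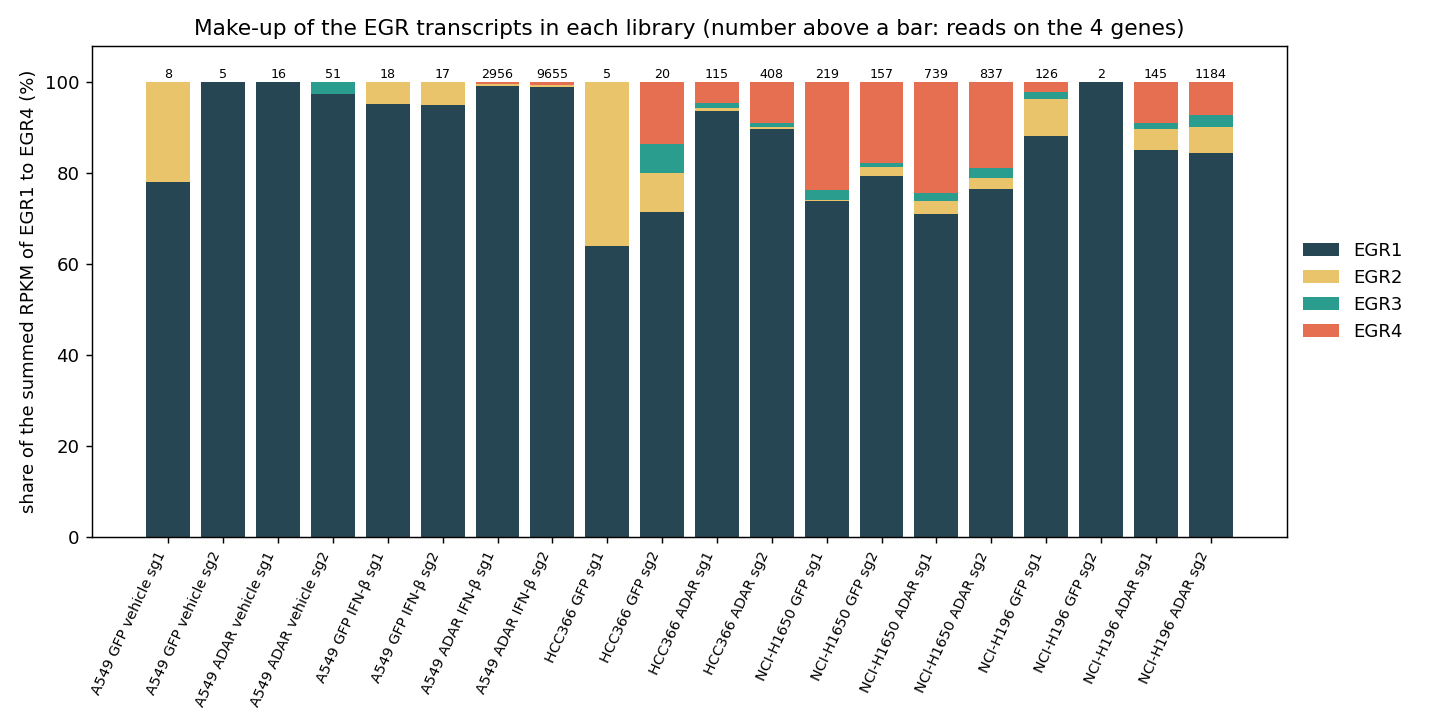
Share of the summed RPKM of EGR1 to EGR4 in each library (stacked bars, percent), with the number of reads on the 4 genes above each bar. EGR1 takes 63.9% or more of every bar, EGR4 takes 17.9 to 24.5% in NCI-H1650, and bars with fewer than 20 reads rest on little.

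In RPKM, NAB1 was the highest of the 6 genes in GFP cells of every line, at 9.31 ± 1.05 in A549 with vehicle, 22.0 ± 2.76 in HCC366, 20.3 ± 1.61 in NCI-H196 (SD, n = 2) and 10.7 to 11.3 in NCI-H1650. EGR1 came next in NCI-H1650 GFP cells, at 8.60 to 10.6. EGR1 was the highest in ADAR cells of HCC366 (47.8 ± 27.9), NCI-H1650 (34.6 ± 7.96) and NCI-H196 (33.5 ± 2.10), and in A549 ADAR cells with IFN-β (152 ± 51.2). In A549 ADAR cells with vehicle EGR1 was below NAB1 and NAB2, at 1.36 ± 0.856. In NCI-H1650 ADAR cells the levels of EGR4 and NAB2 were 9.96 ± 0.0474 and 9.83 ± 0.934 and could not be ordered.

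Differences between the 4 lines in GFP cells were not the contrasts that chose the genes, but the GFP libraries are the controls of those contrasts, so the p-values below are not independent of the choice. They come from edgeR's quasi-likelihood test, adjusted by Benjamini-Hochberg over 19523 genes. Leaving out NCI-H196 GFP sg2 changed none of the calls of the 6 genes between NCI-H196 and the other lines. Line, culture conditions and vehicle cannot be told apart in them. EGR1 was at 0.306 and 0.132 RPKM in A549, 0.684 and 1.19 in HCC366, 3.37 and 6.67 in NCI-H196 and 10.6 and 8.60 in NCI-H1650. The order A549, HCC366, NCI-H196, NCI-H1650 had no overlap between neighbours. These values stand for 6 and 5 reads in A549, 3 and 14 in HCC366, 109 and 2 in NCI-H196 and 169 and 129 in NCI-H1650. The upper NCI-H196 value thus rests on 2 reads. HCC366 was higher than A549 by a log2 fold change of 2.40 (SE 0.83, adjusted p = 0.0164), NCI-H196 higher than HCC366 by 1.72 (SE 0.58, adjusted p = 0.0161) and NCI-H196 lower than NCI-H1650, with a log2 fold change of -1.48 (SE 0.39, adjusted p = 0.00222). NCI-H1650 exceeded A549 by 5.59 (SE 0.49, adjusted p = 1.35e-11), and NCI-H196 exceeded A549 by 4.11 (SE 0.58, adjusted p = 3.25e-07). The difference between HCC366 and A549 was lost without HCC366 GFP sg2 (1.74, adjusted p = 0.425) and without A549 GFP sg2 (1.74, adjusted p = 0.135), and that between NCI-H196 and HCC366 passed in 5 of 10 alternative analyses. Without NCI-H196 GFP sg1 the EGR1 differences of NCI-H196 from A549, HCC366 and NCI-H1650 had adjusted p of 0.224, 0.646 and 0.950.

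EGR4 had 0 reads in A549 GFP cells with vehicle and 41 and 22 reads in NCI-H1650 GFP cells (adjusted p = 2.39e-08). The 95% counting interval of this ratio began at 30.8. EGR4 was higher in NCI-H1650 than in HCC366 by a log2 fold change of 3.98 (SE 0.85, adjusted p = 0.000322) and lower in NCI-H196 than in NCI-H1650, at -4.92 (SE 0.82, adjusted p = 1.15e-05). The difference between NCI-H196 and NCI-H1650 did not pass without NCI-H196 GFP sg1 (-8.32, adjusted p = 0.849). EGR3 had 0 reads in A549 and 8 and 2 in NCI-H1650 (adjusted p = 0.00126), with a 95% counting interval of the ratio that began at 4.17. This EGR3 call was lost without NCI-H1650 GFP sg1 (log2 fold change 4.50). EGR2 was higher in NCI-H196 than in A549 by 3.16 (SE 0.95, adjusted p = 0.00511), from 12 reads in GFP sg1 and 0 in GFP sg2 against 2 and 0. The EGR2 call was lost with DESeq2 (adjusted p = 0.0608) and without A549 GFP sg2 (1.78, adjusted p = 0.148).

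The corepressors followed another order. NAB1 was higher than in A549 in HCC366 (1.25, SE 0.18, adjusted p = 7.71e-07) and NCI-H196 (1.05, SE 0.20, adjusted p = 3.71e-05), and its difference of 0.23 (SE 0.18, adjusted p = 0.287) in NCI-H1650 did not pass. NAB1 was lower in NCI-H1650 than in HCC366, at -1.02 (SE 0.19, adjusted p = 3.74e-05). NAB2 was higher than in A549 in HCC366 (0.87, SE 0.23, adjusted p = 0.00227), NCI-H1650 (0.54, SE 0.22, adjusted p = 0.0354) and NCI-H196 (1.15, SE 0.23, adjusted p = 7.47e-05). For NCI-H196 against A549, leaving out GFP sg1 turned the NAB2 difference to -0.40, which did not pass, and ended the NAB1 call (1.18, adjusted p = 0.186). The NAB2 call in NCI-H1650 was lost when any 1 of the 4 libraries compared was left out (adjusted p from 0.0659 to 0.268), and that in HCC366 was lost without HCC366 GFP sg2 (0.66, adjusted p = 0.176).

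Of the 6 genes, 4 were called higher in NCI-H196 than in A549, 4 in NCI-H1650 and 3 in HCC366, and the shares of all genes called higher were 30.2, 27.5 and 24.2%. These counts include EGR2 in NCI-H196 and EGR3 in NCI-H1650, which were tested only through ADAR libraries. Between HCC366 and NCI-H1650, 3 of the 6 were called in either direction, against 41% of all genes. Between HCC366 and NCI-H196, 1 was called higher in NCI-H196, against 23.2%. Between NCI-H1650 and NCI-H196, 4 were called in either direction, against 46.7%.

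Genes that act with the EGR family were described from lists, by counts and by medians beside those of all genes. Of 8 other immediate-early genes, 8 were called higher after ADAR knockout in A549 with IFN-β (median log2 fold change 1.39), 8 in NCI-H196 (1.07), 7 in NCI-H1650 (0.91) and 2 in HCC366 (1.83). The median of all genes lay between -0.01 and 0.01 in these 4 comparisons, and the shares of all genes called higher were 10.8, 10.3, 6.18 and 1.2%. In A549 with vehicle edgeR called 0 of them, 0 passed an unadjusted p of 0.05 and DESeq2 called 0. FOS, the AP-1 subunit, led in NCI-H196 (2.24, SE 0.22), NCI-H1650 (1.64, SE 0.17) and HCC366 (3.81, SE 0.60). Its relative FOSB led in A549 with IFN-β (4.98, SE 0.28). In NCI-H196 DESeq2 called 0 of the 8.

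Of the kinases and promoter factors upstream of immediate-early genes, 15 were tested in each comparison. MRTFA, a coactivator of serum response factor, was the 1 called in NCI-H1650 (0.60, SE 0.11) and in NCI-H196 (0.31, SE 0.12). With 6.18 and 10.3% of all genes called higher in these lines, 1 of 15 is near or below the background. In A549 with IFN-β, CREB1 (0.87, SE 0.13) and the ETS factor ELK3 (0.40, SE 0.12) were called higher in ADAR cells, where 10.8% of all genes were called higher. The kinase gene RPS6KA4 was called lower (-0.40, SE 0.12), where 6.19% of all genes were called lower. Both counts, 2 of 15 and 1 of 15, are near the background. EdgeR called 0 in HCC366 and in A549 with vehicle, with 3 and 0 at an unadjusted p under 0.05 and 0 and 0 by DESeq2. Within A549 ADAR cells, IFN-β gave 2 kinases or factors called higher and 3 lower, the shares of all genes being 15.5% higher and 9.04% lower. For the higher calls, 2 of 15 is near the background. These are transcript levels of proteins that are regulated by phosphorylation, which was not measured.

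Among reported EGR target genes, 7 of 18 were called higher in NCI-H1650, 7 of 16 in NCI-H196 and 9 of 16 in A549 with IFN-β, with median log2 fold changes of 0.31, 0.26 and 0.34. The shares of all genes called higher in these comparisons were 6.18, 10.3 and 10.8%. DESeq2 called 4, 0 and 8 of the target genes, in either direction. In NCI-H196, 1 was called lower, HPSE, which encodes heparanase (-0.50, SE 0.17), where 7.5% of all genes were called lower. ARC, a neuronal immediate-early gene, led in NCI-H1650, with GDF15, a stress-induced cytokine gene, next (1.08, SE 0.23), TNF led in NCI-H196 (2.41, SE 0.73) and the adhesion molecule gene ICAM1 in A549 with IFN-β (2.27, SE 0.59). EdgeR called 0 of 16 in HCC366 and in A549 with vehicle, with 3 and 1 at an unadjusted p under 0.05 and 2 and 0 by DESeq2. Of the zinc finger relatives that bind GC-rich sites, KLF4 was called in HCC366 (2.77, SE 0.45) and was highest in NCI-H196 (1.21, SE 0.12), and KLF10 was highest in NCI-H1650 (1.39, SE 0.11) and in A549 with IFN-β (2.03, SE 0.12). Of 6, 5, 5 and 6 tested, 1, 3, 3 and 4 were called higher in HCC366, NCI-H1650, NCI-H196 and A549 with IFN-β. The shares of all genes called higher were 1.2, 6.18, 10.3 and 10.8%, and DESeq2 called 1, 3, 0 and 4 of these relatives. In A549 with vehicle it was 0 of 6 by edgeR, by DESeq2 or at an unadjusted p under 0.05.

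Across the 20 libraries, after the mean of each cell line was subtracted from log2 CPM, the genes with a pattern most like EGR1 were NOCT (Pearson r = 0.966), the clock gene PER1 (0.960), FOSB (0.959), NFKBIZ, an atypical IκB (0.953), and ATF3, a stress-induced factor (0.951). Those most like NAB2 were ID4 (0.948), STAT3 (0.943), IRF2-DT (0.925), COL4A3 (0.922) and the chemokine CXCL10 (0.917). These points share libraries, scaling and the same contrasts, and the correlations are descriptions. Without the NCI-H196 libraries, 2 of the 5 remained for EGR1 and 2 of the 5 for NAB2. Within the family, r with EGR1 was 0.816 for EGR4, 0.622 for EGR2, 0.518 for EGR3, 0.256 for NAB2 and -0.0539 for NAB1.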

How the data were processed

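RNA-seq was measured in 20 libraries, 2 per condition, with the sgRNA number of the labels as the replicate. Per the labels and the study's methods, the authors depleted ribosomal RNA, made directional libraries, and sequenced pairs of 150-bp reads, with STAR as the aligner (hg19) and HTSeq as the counter; versions, annotation release and strand setting are not given in the sources used here. The deposited values are raw counts of 58233 Ensembl identifiers; 5 HTSeq summary lines per file were left out. Symbols matched 55727 identifiers. Positions, exons and lengths came from GENCODE v44 lifted to GRCh37, promoters from RefSeq (GRCh38.p14).

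Tests used edgeR 4.0.16 under R 4.3.3 (TMM, filterByExpr by condition, quasi-likelihood F-test, Benjamini-Hochberg adjustment, threshold 0.05). Each of the 3 lines without IFN-β was fitted alone (4 libraries), A549 as 1 fit of 8 libraries, and differences between lines in 1 fit of 20. SE is the absolute log2 fold change divided by the square root of F. Scripts were tested on simulated data. Alternatives were DESeq2 1.42.0, DESeq2 size factors, no low-count filter, a block by sgRNA number or, for IFN-β, by sgRNA, GC and length offsets, a fit of all 20 libraries, the 10 GFP libraries alone and leaving out each library. Same-numbered libraries did not deviate together (correlations of -0.253 to 0.0368), so they were not paired. The replicates are separate sgRNAs, and nothing states repeats of the experiment. The members, lists and comparisons were chosen with earlier results of these data known. Named genes were the 6 members, ADAR, STAT6 for its overlap with NAB2, at most the 2 called genes with the highest rise and 2 with the lowest fall of each list, and the 5 closest patterns to EGR1 and to NAB2.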

Additional observations from a re-analysis of the deposited data

Results flagged for a closer look

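The IFN-β effect on EGR1 in A549 cells differed between ADAR and GFP cells by a log2 fold change of 5.49 (SE 0.99), and it stayed above 4.95 whichever 1 of the 8 A549 libraries was left out. NAB1 and NAB2 lay in opposite directions in different lines, most of these values not passing the threshold. They were flagged because every ADAR library lay on one side of both GFP libraries in each line named. That separation is therefore no support for a difference, and the share of all genes separated in this way was not counted. NAB1 was at -0.87 after ADAR knockout in HCC366 and at 0.45 in A549 with IFN-β. NAB2 was at 0.43 in NCI-H196 and 0.49 in NCI-H1650 and at -0.56 in HCC366. The difference between lines was not tested for NAB1 or NAB2.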

How the results depend on the processing

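Values below were compared with those of the report. NCI-H196 GFP sg2 has 62679 reads, and the 2-library groups limit every count. The log2 fold changes of the 4 EGR genes after ADAR knockout in NCI-H1650 and NCI-H196, and of EGR1 in HCC366 and in A549, kept their sign in all alternatives that gave a value, though several calls were lost. The cause of the changes below was not tested.

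Of the members, the number called after ADAR knockout was 5 in NCI-H196, 4 in NCI-H1650, 1 in HCC366, 1 in A549 with vehicle and 3 in A549 with IFN-β. DESeq2 gave 1 in NCI-H196, 2 in NCI-H1650 and 0 in A549 with vehicle, and left 3, 2 and 1 members without an adjusted p. In HCC366 there were 2 with no filter on low counts, 2 with offsets for GC content and length and 3 in the fit of all 20 libraries. In A549 with vehicle the offsets and the fit of all 20 libraries gave 0 each. Between lines, the offsets gave 5 for HCC366 against A549 (3 before) and 2 for NCI-H196 against HCC366 (1 before), where DESeq2 and DESeq2 size factors gave 0 each.

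The number of genes called over all genes moved as follows. DESeq2 called 5 in NCI-H196 (2513 by edgeR), 413 in NCI-H1650 (1250), 299 in HCC366 (139), 8 in A549 with vehicle (19), 5441 between NCI-H196 and HCC366 (8436) and 5987 between NCI-H196 and NCI-H1650 (9121). Without the filter it was 903 in HCC366, 1552 in NCI-H196 and 30 in A549 with vehicle. With the offsets it was 1053 in HCC366, 1547 in NCI-H196 and 1369 for IFN-β in GFP cells (880). The fit of all 20 libraries called 98 in NCI-H196, 159 in NCI-H1650, 3701 in HCC366, 5 in A549 with vehicle, 1087 in A549 with IFN-β (2622), 531 for IFN-β in GFP cells, 2067 for IFN-β in ADAR cells (3788) and 164 for the difference of the IFN-β effects (780).

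With a replicate block for the sgRNA number, which the labels do not tie to a shared culture, NCI-H196 had 2 members (EGR1 and EGR4) and 115 genes called, the calls of EGR2, EGR3 and NAB2 being lost, and HCC366 had 300 genes. The sign of the EGR3 difference between NCI-H196 and HCC366, which did not pass, turned from -0.39 to 0.084 with the block and to 0.45 with DESeq2. In HCC366 the numbers had a correlation of -0.253, and a replicate block with crossed numbers, chosen after seeing the data, called 960 genes. No block, that by sgRNA for IFN-β included, moved another count by more than 1.5 times. Among single members outside NCI-H196, the block changed no call after ADAR knockout or IFN-β.

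Leaving out each library in turn gave 0 to 5 members and 41 to 3041 genes in NCI-H196, 3 to 4 and 542 to 1110 in NCI-H1650, 1 to 3 and 9 to 6408 in HCC366, 0 to 1 and 3 to 22 in A549 with vehicle, and 1 to 4 and 689 to 3581 in A549 with IFN-β. For IFN-β it gave 0 to 1 and 517 to 1245 in GFP cells, 3 to 5 and 1774 to 4568 in ADAR cells, and 1 to 2 and 253 to 1663 for their difference. Between lines it gave 1 to 4 and 6390 to 8773 for HCC366 against A549, 2 to 4 and 8540 to 9075 for NCI-H1650 against A549, 0 to 4 and 2110 to 11455 for NCI-H196 against A549, 4855 to 6545 genes for NCI-H1650 against HCC366, 0 to 1 and 1174 to 8331 for NCI-H196 against HCC366, and 0 to 4 and 917 to 9071 for NCI-H196 against NCI-H1650. The lowest counts in NCI-H196 came without GFP sg1. Signs turned in log2 differences between lines, over the range given: NCI-H196 against A549, EGR2 -2.72 to 5.92 and NAB2 -0.40 to 1.22; NCI-H1650 against HCC366, EGR2 -1.87 to 0.094; NCI-H196 against HCC366, EGR2 -5.34 to 1.12, EGR3 -4.33 to 4.01, EGR4 -4.34 to 3.47 and NAB2 -1.25 to 0.48; NCI-H196 against NCI-H1650, EGR2 -4.72 to 2.43 and NAB2 -0.93 to 0.73. Of the 5 genes most like EGR1 and the 5 most like NAB2, 2 and 2 remained without the NCI-H196 libraries.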
